A study of Homo sapiens with 2 samples.

Results

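The genes of HNRNPK's own protein family and of its splicing partners were examined for HNRNPK binding in H1299 cells. They comprised 40 protein-coding genes listed by name (the heterogeneous nuclear ribonucleoproteins with RALY and SYNCRIP, the poly-C binding PCBP proteins, the polypyrimidine tract binding PTBP proteins, the SR proteins and the TRA2 proteins), out of 20037 protein-coding genes with a RefSeq span on GRCh38. A gene was counted as having a peak if a listed HNRNPK peak overlapped its span, or the 5 kb to either side, by at least 1 bp. By this rule 27 of the 22351 listed peaks lay at the 40 genes.

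H1299 is an established line of human lung cancer of the non-small cell type, labelled as lung adenocarcinoma, and its untreated cells gave 1 IP library, pulled down with an HNRNPK antibody, and 1 input library, for which no antibody was used. ChIP-seq of this kind sequences the DNA fragments crosslinked to a protein and sets them against fragmented chromatin that was not pulled down. There were no replicates, so no value carries a replicate error and no difference was tested. In the names of the peaks the line appears as A1299, with a different first letter, and all values rest on reading the list as the peaks of the H1299 IP.

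The heterogeneous nuclear ribonucleoproteins (hnRNPs) coat nascent transcripts and, together with SR proteins, set which splice sites are used, with many hnRNPs acting as silencers and many SR proteins as enhancers of exon inclusion. HNRNPK and the PCBP proteins bind C-rich single strands of RNA or DNA through KH domains, and HNRNPK is also studied on promoters as a transcription factor. Many splicing factors regulate their own transcripts and those of their relatives through alternative exons that lead to decay of the mRNA.

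HNRNPK peaks lay within 1 kb of the gene start for 5 members, and the DNA just before these starts is shown because a promoter-bound factor is looked for there. Each line gives the 250 bases upstream of the start on the gene's own strand, 5′ to 3′, from RefSeq GRCh38.p14. Capitals mark matches, on either strand, to the C-rich element CCCTCCC (which reads GGGAGGG on the opposite strand) or to the motifs that the study named for HNRNPK. These are GCGAGG (which reads CCTCGC there) and, as the other motif, CTAATG (which reads CATTAG there). Matches to the C-rich element and the former motif can share bases at their ends.
SRSF7, chr2:38751495-38751744, minus strand: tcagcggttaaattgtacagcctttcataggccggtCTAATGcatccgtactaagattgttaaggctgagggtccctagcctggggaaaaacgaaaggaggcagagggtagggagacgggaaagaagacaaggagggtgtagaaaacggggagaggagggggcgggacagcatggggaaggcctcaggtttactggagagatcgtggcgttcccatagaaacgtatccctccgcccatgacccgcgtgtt
RALY, chr20:33993661-33993910, plus strand: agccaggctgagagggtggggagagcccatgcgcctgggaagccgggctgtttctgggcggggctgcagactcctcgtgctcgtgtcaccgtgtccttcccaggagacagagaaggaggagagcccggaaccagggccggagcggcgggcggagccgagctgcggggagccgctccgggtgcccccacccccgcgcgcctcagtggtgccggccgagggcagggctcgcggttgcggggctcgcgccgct
PCBP4, chr3:51967467-51967716, minus strand: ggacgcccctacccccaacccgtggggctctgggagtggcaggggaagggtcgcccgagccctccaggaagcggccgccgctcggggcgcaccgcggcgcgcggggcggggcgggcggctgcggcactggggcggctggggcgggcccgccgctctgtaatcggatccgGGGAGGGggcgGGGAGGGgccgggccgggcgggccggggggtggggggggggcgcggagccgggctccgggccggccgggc
SYNCRIP, chr6:85643871-85644120, minus strand: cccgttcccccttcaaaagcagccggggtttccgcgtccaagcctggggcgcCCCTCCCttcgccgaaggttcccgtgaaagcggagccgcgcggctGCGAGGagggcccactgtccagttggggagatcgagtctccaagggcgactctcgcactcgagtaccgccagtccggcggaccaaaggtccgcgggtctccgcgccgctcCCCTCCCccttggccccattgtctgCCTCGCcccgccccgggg
PTBP1, chr19:797202-797451, plus strand: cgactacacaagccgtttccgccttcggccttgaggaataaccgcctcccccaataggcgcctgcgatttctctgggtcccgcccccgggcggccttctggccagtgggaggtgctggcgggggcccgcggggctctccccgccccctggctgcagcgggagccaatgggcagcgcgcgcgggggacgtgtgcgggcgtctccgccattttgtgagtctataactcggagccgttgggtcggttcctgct
Of these stretches only that of SRSF7 lay under a peak, with all 250 bases inside it. At the other 4 genes the peak within 1 kb lay downstream of the start, inside the gene.

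Of the 40 genes, 14 had at least 1 peak, or 35%, beside 38.2% of the 19997 other protein-coding genes. A longer gene has more room for a peak, so the members were set beside genes of their own length. Other genes had a peak in 26.6% of cases for spans under 10 kb, in 36.1% for 10 to 30 kb, in 40.7% for 30 to 100 kb and in 57.3% for 100 kb and over. Weighted by the lengths of the 40 genes, these shares came to 36.3%, or 14.5 genes, next to the 14 counted. The splicing factor genes as a whole thus had peaks about as often as other genes of like length. The order turned with the window, since 13 of the 40 had a peak in the span alone against 27% of like-length genes, and 14 within 1 kb of it against 29.7%.

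Within length classes the members lay on either side of the other genes. A peak was found at 2 of 10 members under 10 kb (20%), at 6 of 18 of 10 to 30 kb (33.3%), at 5 of 9 of 30 to 100 kb (55.6%) and at 1 of 3 of 100 kb and over (33.3%). The plot of these shares by gene length shows the members below the other genes in 3 classes and above them for spans of 30 to 100 kb, where HNRNPC, RALY, HNRNPM, SYNCRIP and HNRNPUL1 had a peak.

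The peaks at these genes were thin, as were those of the list as a whole. The fold enrichment as given by the authors' peak caller is a ratio of coverage in the IP to the background around the peak, and the pileup is the IP coverage in scaled fragments, from which whole fragments were recovered. The 27 peaks had a median fold enrichment of 3.34 (range 2.15 to 4.77) and a median of 9 fragments (6 to 16), beside 3.58 and 8 fragments over all listed peaks. No member had a peak with a fold enrichment of at least 5, as 2.21% of other protein-coding genes and 1.98% of those of like length did. Of the 27 peaks 19 lay in a member's span and 8 in the 5 kb around it, and all 8 of these overlapped another annotated gene. The strongest peak at a member stood at the 95.5th percentile of all peaks by fold enrichment.

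The caller's FDR, the share of false peaks expected among those at least as strong, was under 0.05 for 5 of the 27 peaks (18.5%), against 15.5% of all peaks. They belonged to 5 genes (12.5%), PCBP2, PCBP3, HNRNPL, PTBP1 and HNRNPUL1, where 9.04% of the other protein-coding genes and 8.45% of those of like length had such a peak. By length 3.38 genes were expected. For PTBP1 and HNRNPUL1 this peak lay outside the span and over a neighbouring gene, so 3 members (7.5%) held one in their own span, beside 6.68% of other genes. The plot of fold enrichment against fragments shows the members' peaks inside the bulk of the list, near its median of 8 fragments.

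**Figure D1:**
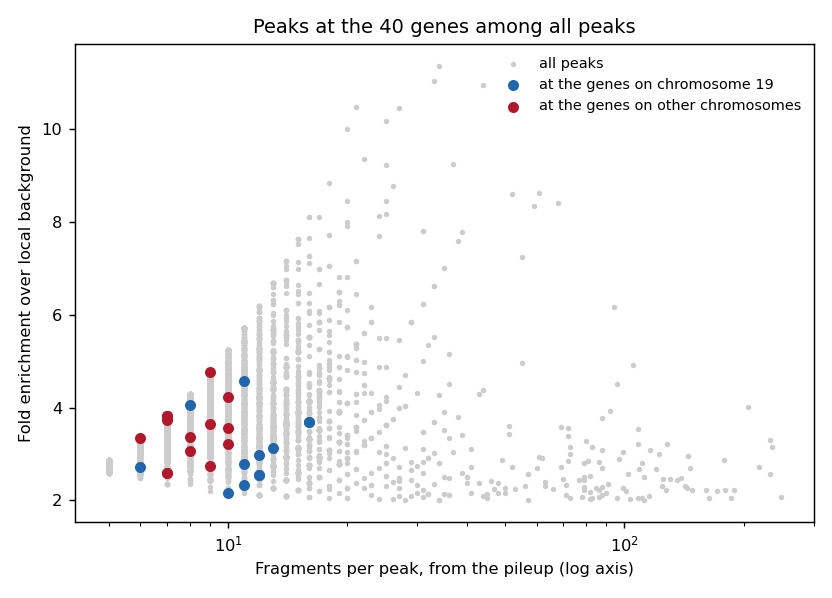
Fold enrichment over the local background (y axis) against fragments per peak recovered from the pileup (x axis, log scale) for all 22351 peaks, with the 27 peaks at the splicing factor genes coloured by chromosome. The members' peaks hold 6 to 16 fragments and stay under a fold enrichment of 5, and on chromosome 19 those of HNRNPL and HNRNPUL1 have 10 to 16 fragments at folds of 2.15 to 3.69.

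The hnRNP, PCBP, PTBP and RALY genes had a peak at 13 of 28 members (46.4%), beside 37.8% for like lengths or 10.6 genes. The SR and TRA2 genes had a peak at 1 of 12 (8.33%), beside 32.9% or 3.95 genes. All 4 members on chromosome 19 were in the former group and had a peak, and without them it had 9 of 24 (37.5%), beside 35.8% or 8.6 genes. Without chromosome 19 its count was thus close to that of like lengths, and the part of that chromosome was not tested. These groups were small, and the difference between them was not tested. By median the flanks of the genes did not follow this order. The 500 kb to either side held a median of 11 peaks per Mb (0 to 115) for the hnRNP group. For the SR and TRA2 genes it was 14 (0 to 34), so the densest flanks were in the hnRNP group.

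The gene of HNRNPK itself, the protein pulled down, had no peak. Its span (chr9:83968083-83980615, minus strand, 12.5 kb) was 46.6 kb from the nearest listed peak on one side and 308 kb on the other. In a list that holds peaks of as few as 5 fragments where the local background was lowest, no enrichment at the HNRNPK gene reached the list. Whether weaker binding was there cannot be told from the list.

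The closest relatives of HNRNPK are the PCBP genes, which encode KH-domain proteins that bind C-rich mRNA and act in mRNA stability, translation and splicing. Of these 4 genes, PCBP2, PCBP3 and PCBP4 had 6 peaks between them, all inside the spans, and with HNRNPK the family counted 3 of 5 genes beside 1.92 expected by length. PCBP1, an intronless gene of 1.73 kb, had none, and its nearest peak was 45.7 kb away.

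PCBP3 carried the strongest peak of the 40 genes by fold enrichment, at chr21:45929440-45929703, with a fold of 4.77 (pileup 8.76, FDR 0.0243). It rested on 9 fragments (exact Poisson 95% interval 4.12 to 17.1) over a local background of 1.05. This was close to the lowest background of the whole list, 1.04. A weaker peak at chr21:45923296-45923550 had a fold of 3.82 on 7 fragments (2.81 to 14.4) and an FDR of 0.29. The remaining peak, at chr21:45725629-45725920, had a fold of 2.6 on 7 fragments and an FDR of 1. At 299 kb PCBP3 is the longest of the 40 genes, and its stronger peaks lay close together, at 95.7% and 93.6% of the span counted from the low-coordinate end.

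PCBP2 encodes the widely expressed poly-C binding protein that stabilises mRNAs and takes part in translation from internal entry sites. Its peak at chr12:53474925-53475157 had a fold of 4.23 (pileup 9.73) and an FDR just under the threshold, 0.0485, on 10 fragments (4.8 to 18.4). A weaker peak upstream of it, at chr12:53472981-53473327, had a fold of 2.6 on 7 fragments and an FDR of 1. Both lay in the downstream part of the gene, at 78.9% and 72.4% of the span. The PCBP4 peak was of another kind, since it lay 264 bp inside the start (chr3:51966791-51967202, fold 3.34, 6 fragments, FDR 0.64). The stretch before the PCBP4 start holds 2 matches to the C-rich element, written as GGGAGGG on the gene's strand, and its GC content of 84.8% was the highest of the 5 stretches.

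The L and PTB families include HNRNPL, which binds CA repeats and silences exons, and PTBP1, which binds pyrimidine tracts and represses exons outside neurons. Both had 3 peaks, while HNRNPLL, PTBP2 and PTBP3 had none, so 2 of 5 genes had a peak, beside 2.27 expected by length. PTBP2, the neuronal paralogue, lay 1100 kb from the nearest peak, the farthest of all members. HNRNPLL lay 105 kb and PTBP3 26.2 kb away.

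At HNRNPL the peak with the most fragments, at chr19:38838580-38838929, had a fold of 3.69 (pileup 15.6, FDR 0.0158) on 16 fragments (9.15 to 26) over a background of 3.5. The other peaks, at chr19:38840476-38840709 and chr19:38845566-38845812, had folds of 2.79 and 2.54 on 11 and 12 fragments, with FDRs of 0.505 and 0.64. All lay inside the span, the strongest at 85.1% of it from the start, where an uncharacterised locus (LOC124904712) is also annotated. The background of 3.19 to 4 under these peaks was above the median of 1.28 of the whole list, so more fragments gave a lower fold than at PCBP3.

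At PTBP1 only 1 of the 3 peaks lay in the gene. This peak, at chr19:798302-798661, began 850 bp inside the start and had a fold of 4.06, 8 fragments (3.45 to 15.8) and an FDR of 0.134. The peak with the higher fold, 4.57 on 11 fragments (5.49 to 19.7; pileup 10.7, FDR 0.0144), lay 2.03 kb past the gene's end at chr19:814340-814670. A weaker peak beside it, at chr19:813804-814115, had a fold of 2.72 on 6 fragments and an FDR of 1. Both of these lay inside the neighbouring gene PLPPR3, which encodes a phospholipid phosphatase-related membrane protein, and to which gene they belong cannot be told apart.

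HNRNPUL1, of the U family of nuclear scaffold-associated hnRNPs, had 6 peaks, the most of any member, but 2 of them in the span. The peak with the most fragments, at chr19:41310310-41310764, had a fold of 3.69 (pileup 15.6, FDR 0.0158) on 16 fragments (9.15 to 26), and lay 2.52 kb past the gene inside CCDC97. A pair upstream lay in AXL, a receptor tyrosine kinase gene, at chr19:41257401-41258010 and chr19:41258334-41258573, with folds of 2.54 and 2.98 on 12 fragments each and FDRs of 0.64 and 0.29. The peaks in the HNRNPUL1 span, at chr19:41265642-41265886 and chr19:41294445-41294677, had folds of 3.12 and 2.15 on 13 and 10 fragments, with FDRs of 0.18 and 1. Most of this cluster was thus outside the gene, and the last, 1.23 kb past the end at chr19:41309012-41309353, had a fold of 2.34 on 11 fragments and an FDR of 0.939. HNRNPU and HNRNPUL2 had no peak, the nearest lying 13.1 and 20.2 kb away, which left the U family at 1 of 3 genes, beside 1.13 expected by length.

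The C family binds U-rich tracts of nascent transcripts, and both of its genes had a peak, beside 0.814 expected by length. At HNRNPC the peak at chr14:21260035-21260267 had a fold of 3.73 (pileup 6.81, FDR 0.29) on 7 fragments (2.81 to 14.4), at 15.4% of the span. At RALY, which encodes an HNRNPC-like protein, the peak at chr20:33994008-33994241 began 97 bp inside the start and also overlapped the antisense gene RALY-AS1 (fold 3.22, 10 fragments, FDR 0.29). HNRNPM, which binds GU-rich RNA and for which length gave 0.407 genes, had a peak at 90.8% of its span from the start. It lay at chr19:8484940-8485204 and had a fold of 3.81 (pileup 6.81, FDR 0.29) on 7 fragments (2.81 to 14.4).

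The F/H family binds G-rich RNA, and 2 of its 3 genes among the members had a peak, or 2 of 4 with HNRNPH2, which is counted with the other splicing genes and had none. By length 1.08 of the 3 were expected. HNRNPH1 had a fold of 3.65 (pileup 8.76, FDR 0.208) on 9 fragments (4.12 to 17.1) at chr5:179626970-179627202, where LOC128966623 is also annotated. HNRNPF had a fold of 3.37 on 8 fragments with an FDR of 0.35 at chr10:43387686-43387918, while HNRNPH3 was 94.5 kb from its nearest peak. In the Q/R family, SYNCRIP, a factor in mRNA transport and translation, had a peak that began 345 bp inside its start (chr6:85643216-85643525, fold 3.07, 8 fragments, FDR 0.622). Its paralogue HNRNPR had none within 49.3 kb, so 1 of the 2 genes had a peak, beside 0.814 expected by length.

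Among the A/B and D genes are those of abundant hnRNPs of the nucleus. Several of the encoded proteins bind AU- or AG-rich RNA or silence exons. Of the 7 A/B and D genes only HNRNPAB had peaks, beside 2.15 genes expected by length. Both of its peaks lay downstream of the gene in PHYKPL, a phospholyase gene, at distances of 0.845 and 3.23 kb. The nearer, at chr5:178212008-178212397, had a fold of 3.55 (pileup 9.73, FDR 0.179) on 10 fragments (4.8 to 18.4), and the farther, at chr5:178214398-178214646, a fold of 2.74 on 9 fragments and an FDR of 0.64. HNRNPA0, HNRNPA1, HNRNPA2B1, HNRNPA3, HNRNPD and HNRNPDL had no peak, with HNRNPA2B1 the closest of all members without one at 7.31 kb and HNRNPD and HNRNPDL, neighbours on chromosome 4, at 257 and 201 kb.

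Among the SR genes, whose proteins join RNA-binding domains to arginine- and serine-rich tails and recruit the spliceosome to exons, 1 of the 10 members had a peak, beside 3.23 expected by length. SRSF8 and SRSF12, counted with the other splicing genes, had none either, which makes 1 of 12. That gene was SRSF7, which also acts in mRNA export and the choice of polyadenylation site. Its peak, at chr2:38751454-38751857, covered the gene start, with most of its 404 bp upstream, and had a fold of 3.82 (pileup 6.81, FDR 0.29) on 7 fragments (2.81 to 14.4). SRSF1, SRSF2, SRSF3, SRSF4, SRSF5, SRSF6, SRSF9, SRSF10 and SRSF11 had none, at distances from 12 kb for SRSF6 to 686 kb for SRSF11. TRA2A and TRA2B, the SR-like activators of exon inclusion, lay 34 and 29.2 kb from their nearest peaks, where 0.721 of the 2 were expected to have one by length.

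The plot of the nearest peak to each gene shows these families side by side. The 26 genes without a peak lay at a median of 44 kb from the nearest, with 10 of them over 50 kb away. Other protein-coding genes without a peak lay at a median of 58.3 kb, and 6674 of these 12356 were over 50 kb away. The members without a peak were thus not farther from peaks than other such genes.

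Where the peaks lay was then compared with the gene starts, the region in which a transcription factor is looked for. Strand was given in the source used for 36 of the 40 genes. Of these 5 (13.9%), SRSF7, RALY, PCBP4, SYNCRIP and PTBP1, had a peak within 1 kb of the start. The share was 5.68% of the other protein-coding genes and 5.9% for like lengths, or 2.12 genes. None of these 5 peaks had an FDR under 0.05, and they held 6 to 10 fragments each. With every start that RefSeq lists, HNRNPUL1 joined them, giving 6 of 36 (16.7%) beside 6.64% of the other genes. The count was small and its difference from the other genes was not tested.

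Only the SRSF7 peak covered the start itself. It was also the only one to overlap the window from 250 bases before to 50 after the start, as 288 of 15806 windows of other genes did. At the other 4 starts the nearest edge of the peak was 97 to 850 bp inside the gene. Along the span, 7 of the 16 peaks in members of known strand lay in the part nearest the start when spans were split by peak midpoint into equal upstream, middle and downstream parts (with SRSF7, whose midpoint is just before the start, in the upstream part), 2 in the middle and 7 in the downstream part (43.8%, 12.5% and 43.8%). In other genes these shares were 33.3%, 29.1% and 37.6%, and this split was chosen after the positions were seen.

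**Figure D2:**
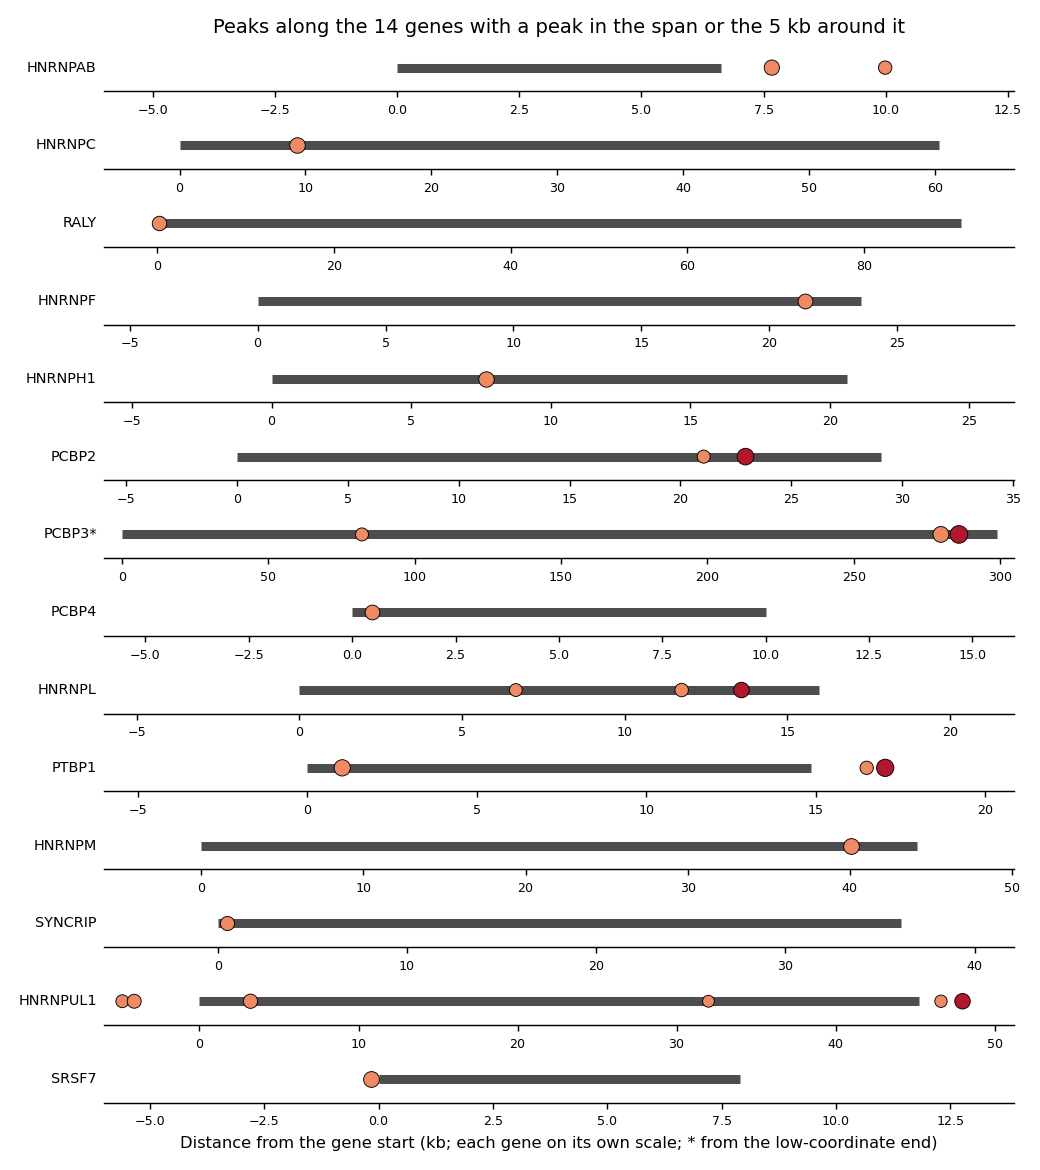
Peaks along the 14 genes with a peak, as distance from the gene start (kb, each gene on its own scale). The span is a bar, larger circles stand for higher fold enrichment and dark red for an FDR under 0.05. PCBP3, whose strand was not given in the source used, is drawn from its low-coordinate end. The peaks of RALY, PCBP4, SYNCRIP and SRSF7 and 1 of the 3 of PTBP1 sit at or near the start, and those with an FDR under 0.05 in the 4 genes of known strand sit in the downstream part of the span or past it.

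The motifs in the promoters were no more frequent in members with a peak, apart from CTAATG, found in 1 window. The C-rich element CCCTCCC was in 16 of 36 member windows (44.4%) beside 30.1% of other windows of the same length, and GCGAGG in 17 (47.2%) beside 27.8%. Among members with a peak 4 of 13 windows held CCCTCCC, and among those without a peak 12 of 23. For GCGAGG these counts were 4 of 13 and 13 of 23. CTAATG was in 1 member window, that of SRSF7 (2.78%, beside 5.11%), as can be seen in capitals in the stretch shown. Member promoters were also richer in GC (median 66.5%, beside 62.7%), and the part of this in the motif counts was not tested.

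Chromosome 19, which is dense in genes and held 2195 of the listed peaks, carried much of the signal at the members. All 4 members on it, PTBP1, HNRNPM, HNRNPL and HNRNPUL1, had a peak, and they held 13 of the 27 peaks. Of the other protein-coding genes there 55.6% had one, and 2.39 of the 4 were expected by length on that chromosome. The other 36 members had a peak in 10 cases (27.8%), beside 34.1% for like lengths or 12.3 genes. Away from chromosome 19 the count was thus below that of genes of like length by a few genes, which was not tested.

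The peaks on chromosome 19 were also of more than one kind. The 13 there had a median fold of 2.98 over a local background of 3.38, and the 14 elsewhere a median fold of 3.46 over 1.64. Per Mb of gene and 5 kb flanks, members held 81.1 peaks on chromosome 19 and 8.7 elsewhere. Other genes held 42.9 on chromosome 19 and 8.58 elsewhere. The 81.1 came from 13 peaks in 0.16 Mb at 4 genes. Of these peaks, 2 at PTBP1 and 4 at HNRNPUL1 lay outside the spans, over other annotated genes. Over all chromosomes the members held 15.3 and other genes 9.55, so the difference lay on chromosome 19. All 2195 peaks of the chromosome had a median fold of 3.34 over a background of 2.61, beside 3.58 over 1.28 in the whole list. Among the members the background was high at HNRNPL and HNRNPUL1, whose 9 peaks had backgrounds of 3.19 to 4 and folds of 2.15 to 3.69. The 4 peaks of PTBP1 and HNRNPM had backgrounds of 1.05 to 1.56 and folds of 2.72 to 4.57. The part of the background in the counts was not tested.

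The surroundings of a gene moved with whether it had a peak. In the 500 kb to either side, members with a peak had a median of 28 peaks per Mb (2 to 115) and members without a median of 10 (0 to 34). Other protein-coding genes showed the same order, with 15 and 6. Genes with a peak were also longer, and lengths were not matched here. Median spans with and without a peak were 26.3 and 13.4 kb for members, and 36.1 and 19.2 kb for other genes. HNRNPL had the densest flanks, at 115 peaks per Mb, followed by HNRNPUL1 at 77 and PTBP1 at 66, all on chromosome 19. HNRNPC and SYNCRIP had a peak in sparse flanks of 2 and 4 per Mb, while SRSF2 and SRSF1 had none in flanks of 34 and 33.

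Other splicing genes were looked at in the same way, with 77 genes of snRNPs, splice-site recognition, other regulators and SR kinases, among them the family genes HNRNPH2, SRSF8 and SRSF12. A peak was found at 26 of them (33.8%), beside 40.1% for like lengths. A peak with an FDR under 0.05 was found at 6 (7.79%), beside 9.04% of other protein-coding genes of any length. The share with any peak was close to the 35% of the 40 genes, but the 77 were longer (median 30 kb against 16 kb). The share for like lengths was 40.1% for the 77 and 36.3% for the 40. Per Mb of gene and 5 kb flanks the 40 held 15.3 peaks, or 8.7 without those on chromosome 19, and other protein-coding genes 9.55. The 74 peaks of the other splicing genes came to 8.17 per Mb. Of these, 24 were at RBFOX3 and 13 at RBFOX1, long genes of 576 and 2474 kb. The strongest was at PRPF31, a tri-snRNP assembly factor, with a fold of 8.12 on 24 fragments and an FDR of 1.33e-12, 1.91 kb outside the span on chromosome 19. RBFOX1, a neuronal splicing regulator with a span of 2474 kb, followed with a fold of 7.63. RBFOX3 (4.96), CLK3 (4.77), SRRM2 (4.66), PRPF6 (4.66), SRPK2 (4.3) and DHX15 (4.15) came next by fold enrichment, DHX15 level with SF3B4 after rounding, with the peaks of CLK3, SRRM2 and PRPF6 lying over the neighbouring genes EDC3, ELOB and C20orf204. PRPF31 and RBFOX1 were the 2 of the 77 genes with a fold of at least 5, which 2.21% of other protein-coding genes had.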

How the data were processed

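HNRNPK ChIP-seq of untreated H1299 cells was analysed from 1 peak list, called on 1 IP library against 1 input library. The submitters' processing notes name Trimmomatic 0.36, STAR 2.5.3a, MACS2, bedtools and HOMER and the build GRCh38, and the thresholds were not given in the sources used here. Fold enrichment, as deposited, is a ratio, with the IP pileup set over the background near the peak and 1 taken as added to both. The FDR is a q-value on a linear scale, as deposited by the authors. Pileup, as deposited, is a signal in scaled fragments of the IP. The lowest fold listed was 2.00. These are the authors' values, with no replicate error, and reads per library were not analysed here.

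Pileups were whole multiples of 0.9735 within 0.00668 of a multiple, which gave fragments per peak, each with an exact Poisson 95% interval that covers counting error only. The local background was the pileup plus 1, divided by the fold, minus 1. Gene spans came from RefSeq GRCh38.p14, with strand, motif windows and the further listed starts from its promoter table, which matched 36 of the 40 members. Distances from the start were measured from the edge of the span at which the gene begins on its strand. TRA2A, SRSF2, PCBP3 and HNRNPA1 had no strand there, and exons and introns were not used here. Overlap needed 1 bp. Each share of like length is that of other protein-coding genes in 4 length classes, weighted by the members in each, and the number expected by length is this share of the members. Motifs were searched in the window from 250 bases before to 50 after a start, taking for each gene the window nearest the start of its span. No tests were made. The overlap counting was tested on simulated data.

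Every member with a peak was named, with the position, fold, fragments and FDR of each peak for the 10 of highest fold enrichment and the pileup and interval of their strongest peaks, together with HNRNPK, the members without a peak and the 8 other splicing genes of highest fold. The naming of peaks near a start and of neighbouring genes was decided with their values in view. The members and lists were chosen with earlier results of these data known. Alternatives were other windows, thresholds on FDR or fold, midpoints, merged peaks, other backgrounds and other distances from the start. Python 3.11.15, numpy 2.4.6, pandas 2.3.3, scipy 1.17.1 and matplotlib 3.10.9 were used.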

Additional observations from a re-analysis of the deposited data

How the results depend on the processing

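The count of 14 members with a peak was 13 in the span alone, 14 within 1 kb, 15 within 10 kb and 14 by peak midpoint, while the share of like-length genes moved more, to 27%, 29.7% and 42.5% for the span, 1 kb and 10 kb. The members were thus above that share in the span alone and within 1 kb, and below it at 5 and 10 kb. With an FDR under 0.05 there were 5 members and 5 peaks against 8.45% of like-length genes, the median fold was 4.23, and 6 other splicing genes and 0 gene starts were left. With a fold of at least 5 there were 0 members and 0 peaks against 1.98%, and 2 other splicing genes. In the span alone 17 other splicing genes had a peak. The background was 38.2% for genes of any length and 37.9% for genes of the same chromosome and a span within a factor of 2. Chosen after seeing the data, a background of the same length class and flanking peak density gave 39.7%, and leaving out chromosome 19 gave 34.1%, 10 members and 14 peaks, with 9 hnRNP, PCBP and PTB members in place of 13. The cause of these moves was not tested. Merged peaks and other distances from the start kept counts within 1.5 times of those reported. At 6 to 16 fragments per peak, counting error alone is wide, and fewer than 5 fragments would not be listed.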
